A study of Mus musculus with 4 samples.

Results

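The genes examined here are 10 members of the transforming growth factor beta (TGF-beta) pathway, measured in CD11b-positive cells of mouse brain: the ligand Tgfb1, its surface tether Nrros, the receptors Tgfbr1 and Tgfbr2, the signalling SMADs Smad2, Smad3 and Smad4, and the inhibitors Smad7, Ski and Skil. They were taken by symbol from the 55471 genes of the count table, each symbol matching 1 Ensembl identifier, so the account covers 10 of 55471 genes. The 4 libraries formed 1 group, mice fed the CSF1R inhibitor PLX5622 over 7 days and killed for cell isolation after 10 drug-free days, 17 days in all, at an age of 10 to 13 weeks. CD11b-positive cells were collected with magnetic beads and 300 ng of total RNA was taken through poly(A) selection into strand-marking libraries. The labels used here state no strain, sex or genotype and do not tie a library to an animal. The p-values below therefore speak only of how far these 4 samples scattered, and that scatter may be technical. No untreated group was analysed here, and no effect of the drug or its withdrawal is estimated.

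TGF-beta1 is secreted as a latent complex in which its propeptide cages the growth factor, and in microglia the transmembrane protein NRROS (also called LRRC33) holds that complex at the cell surface. Released ligand binds the type II receptor TGFBR2, which phosphorylates the type I receptor TGFBR1. TGFBR1 in turn phosphorylates SMAD2 and SMAD3, which enter the nucleus with SMAD4, while SMAD7 blocks the receptor and SKI and SKIL (SnoN) recruit corepressors to the SMAD complex. In the brain this pathway is known for keeping microglia in their mature, surveying state.

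All 10 genes were expressed well above the detection threshold, which was 1 CPM (counts per 1000000 counts of a library) in every library and was met by 22.6% of the genes in the table. The lowest single count of a member was 1572, for Smad4 in library 3, against a floor of 3 counts. Library totals ran from 23036202 to 24487418 counts. Defining markers of the labelled cells were present: all 10 microglia markers were detected, their summed level was 31974 to 39710 CPM, and Itgam, which encodes CD11b, shared 68.7% of its exonic bases with another gene model, so its own level was uncertain. Libraries 1 and 3 stood apart. In library 3 the summed endothelial, pericyte and smooth muscle, and choroid plexus markers were 4.12, 5.80 and 5.44 times lower than the mean of the other libraries, and all 9 choroid plexus markers and all 10 endothelial markers had their lowest value there. Choroid plexus markers were abundant in sum, with 16103, 16101, 3351 and 22482 CPM in libraries 1 to 4. The median of the mean levels of the 9 genes was only 65.9 CPM, so a few of them carried most of the sum. Endothelial markers summed to 1315, 1286, 299 and 1093 CPM, and pericyte and smooth muscle markers to 726, 701, 110 and 481 CPM. Summed erythroid markers were 6.22 times lower in library 3, with 365, 174, 32.4 and 65.9 CPM in libraries 1 to 4, and summed oligodendrocyte markers were also lowest there, with 873, 476, 395 and 608 CPM. In bulk samples fewer cells of a type and less RNA per cell cannot be told apart. Library 1 had relatively more counts on short genes and fewer on long ones, with a median log2 difference from the other libraries of 0.23 in the shortest and -0.15 in the longest of 3 equal classes of exonic length, and it held the highest summed border macrophage markers, at 1615 CPM against 989 to 1168 CPM. Interferon-stimulated genes summed to 303, 453, 995 and 671 CPM in libraries 1 to 4. Summed markers of lymphocytes, neutrophils, monocytes and neurons stayed at or under 80.2 CPM in each list, astrocyte markers lay between 220.3 and 315 CPM, and no marker list had a gene without counts in all 4 libraries.

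The ligand gene Tgfb1 (ENSMUSG00000002603) had 289, 353, 385 and 319 CPM in libraries 1 to 4, after TMM scaling (edgeR's trimmed mean of M values). The mean was 336 ± 41.4 CPM (SD, n = 4), highest in library 3 (library 2 when scaled to the microglia markers) and lowest in library 1. Nrros (ENSMUSG00000052384) had 185, 166, 177 and 141 CPM, a mean of 167 ± 19.4 CPM, and its order was different, with library 1 highest (library 2 when scaled to the microglia markers) and library 4 lowest. On GRCm38, Tgfb1 lies on chromosome 7 and Nrros on chromosome 16, and neither shares an exonic base with another annotated gene.

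The type I receptor gene Tgfbr1 (ENSMUSG00000007613) was the most abundant member, with 2217, 2077, 2253 and 1955 CPM in libraries 1 to 4. Its mean was 2126 ± 137 CPM, and the highest library exceeded the lowest 1.15-fold. The type II receptor gene Tgfbr2 (ENSMUSG00000032440) had 456, 599, 687 and 591 CPM, a mean of 583 ± 95.3 CPM. Tgfbr2 was lowest in library 1, a library in which Tgfbr1 was close to its highest value (at its lowest when scaled to the microglia markers), and without library 1 the mean of Tgfbr2 was 626 ± 53.3 CPM.

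After TMM scaling Smad4 and Smad2 had the smallest spread of the members, and Smad3 varied somewhat more than Tgfbr1. Smad2 (ENSMUSG00000024563), a substrate of the receptor kinase, had 71.6, 73.6, 71.2 and 66.9 CPM in libraries 1 to 4, a mean of 70.8 ± 2.80 CPM. Smad3 (ENSMUSG00000032402), the other substrate, had 119, 138, 142 and 125 CPM, a mean of 131 ± 10.7 CPM. Smad4 (ENSMUSG00000024515), the partner shared with the bone morphogenetic protein branch, had 65.1, 69.0, 69.2 and 67.2 CPM, a mean of 67.6 ± 1.89 CPM. Between its highest and lowest library Smad4 differed 1.06-fold, Smad2 1.10-fold and Smad3 1.19-fold. The smallest spread depends on the scaling. Scaled to the microglia markers, Nrros and Tgfbr1 had the smallest, with an SD of 3.35% and 3.91% of the mean. Smad2 and Smad4 then had an SD of 8.48% and 10.97% of the mean.

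The inhibitors varied more between libraries than the signalling SMADs. Smad7 (ENSMUSG00000025880), which is itself induced by TGF-beta and feeds back on the receptor, had 133, 236, 172 and 143 CPM in libraries 1 to 4, a mean of 171 ± 46.5 CPM. Library 2 stood above the rest, 1.58 times the mean of the others, and without it the mean was 149 ± 20.5 CPM. Ski (ENSMUSG00000029050) had 344, 468, 471 and 406 CPM, a mean of 422 ± 60.2 CPM. Skil (ENSMUSG00000027660) had 329, 438, 398 and 328 CPM, a mean of 373 ± 53.9 CPM. Smad7 and Skil were highest in library 2, where Ski was just below its value in library 3. On total counts Ski was just above library 3 in library 2, and scaled to the microglia markers it had 488 against 440 CPM. Smad7 and Ski were lowest in library 1. Skil was lowest in library 4, just under library 1 (in library 1 on the other scalings tried).

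**Figure D1:**
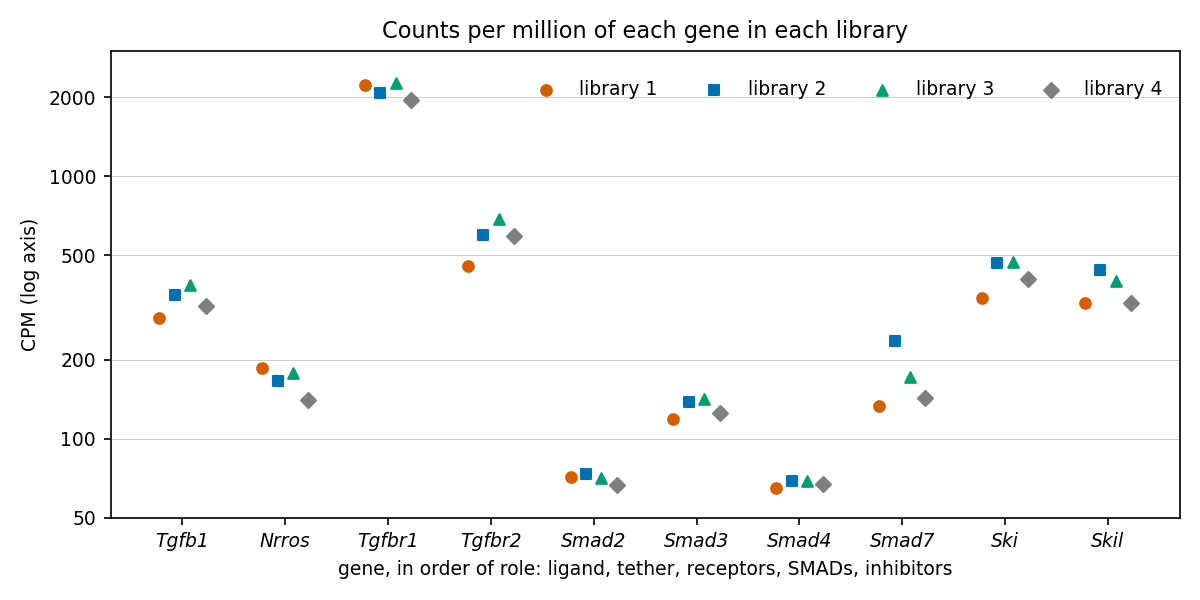
CPM (log axis) of the 10 genes, with 1 point per library. Tgfbr1 lies between 1955 and 2253 CPM, the points of Smad2 and Smad4 nearly coincide, and Smad7 in library 2 (236 CPM) stands above its other values.

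None of the 10 members differed between libraries past the threshold. The test, a goodness of fit to a negative binomial model made with edgeR, asks whether a gene varies more than genes of its level. It called 463 of 14112 tested genes (3.28%) at a Benjamini-Hochberg adjusted p under 0.05. The count of 0 members also held at an unadjusted p under 0.05 (9.57% of all genes), in a quasi-likelihood test of the same counts (0 of all genes), and among the dispersion outliers of DESeq2 (0.0283% of all genes). Smad7 came nearest, with an unadjusted p of 0.098 and an adjusted p of 0.783 in edgeR. Its unadjusted p was 0.020 without library 3 and 0.699 without library 2. The unadjusted p of the other 9 members lay between 0.451 for Tgfbr2 and 0.996 for Smad4. High values were common in this test, since 69.9% of all tested genes had an unadjusted p over 0.5. A p that misses the threshold does not show that the libraries were alike. The median SD of log2 CPM over the 10 members was 0.18, against 0.23 over all tested genes and 0.17 over the 3285 tested genes at or above the level of the lowest member, so the members' spread was close to that of genes at least as abundant.

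Levels of different genes were compared per kilobase of exon. Tgfbr1 led with 325 ± 20.9 CPM per kilobase and ranked 87 among the 12506 detected genes of known exonic length. Ski followed with 75.9 ± 10.8, Tgfbr2 with 71.2 ± 11.6, Tgfb1 with 66.7 ± 8.21, Nrros with 40.0 ± 4.65, Skil with 38.5 ± 5.56 and Smad7 with 37.8 ± 10.3 CPM per kilobase. The signalling SMADs closed the order, Smad3 with 23.7 ± 1.93, Smad4 with 18.2 ± 0.510 and Smad2 with 8.06 ± 0.319 CPM per kilobase. The median over detected genes was 6.27 CPM per kilobase, below every member. Tgfbr2 and Tgfb1, Nrros and Skil, and Skil and Smad7 changed places between libraries and did not differ beyond their spread. Ski exceeded Tgfbr2 in 4 of 4 libraries, but by only 1.01-fold in libraries 3 and 4. The other 5 of the 9 neighbouring pairs kept their order in every library. The order depends on the length used. Among the pairs that turned, divided by the longest transcript, Tgfb1 stood above Tgfbr2 (log2 ratio of Tgfbr2 over Tgfb1 -0.87), and divided by the median coding transcript, Smad3 stood above Smad7 (log2 ratio of Smad7 over Smad3 -0.80). That median was only 605 bases for Smad3, whose longest transcript has 5090. With the longest transcript Smad7 stayed above Smad3 (0.60). Pairs were tested by an exact permutation that flips the signs of the 4 log2 ratios (two-sided). It can give no p below 0.125, or 2 of 16 flips, so no pair could reach 0.05, and the smallest adjusted p over the 9 pairs was 0.188.

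**Figure D2:**
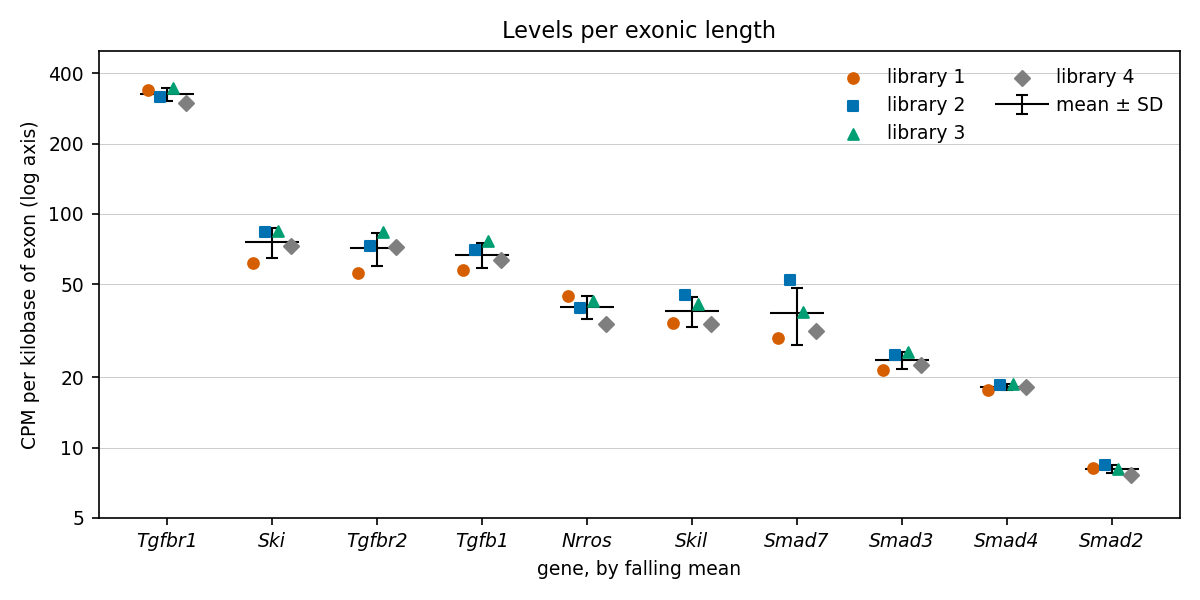
Levels per kilobase of exon (log axis), ordered by mean, with 1 point per library and bars for the mean ± SD over 4 libraries. Tgfbr1 (325 CPM per kilobase) stands apart from a group between 37.8 and 75.9, and the 3 signalling SMADs lie lowest.

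Positions and annotated lengths bear on these levels. On GRCm38, Tgfb1 spans chromosome 7, 25687002 to 25705077, Nrros chromosome 16, 32142785 to 32165594, Tgfbr1 chromosome 4, 47353222 to 47414931, Tgfbr2 chromosome 9, 116084293 to 116175360, and Smad3 chromosome 9, 63646767 to 63757994. Ski lies on chromosome 4, 155154075 to 155222592, and Skil on chromosome 3, 31095058 to 31122577. Smad2, Smad4 and Smad7 all lie on chromosome 18, at 76241580 to 76310963, 73639009 to 73703780 and 75367529 to 75395935. Of the longest transcript of each member, at least 99.0% of 50-base stretches occurred in no annotated transcript of another gene. The counts lost to or gained from close copies were not measured. The annotated isoforms of some members differ widely in length: Skil has 9694 exonic bases in all and a median coding transcript of 2904 bases, and Tgfb1 has 5042 exonic bases and a longest transcript of 2573. Which isoforms the cells carried cannot be read from counts per gene.

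Partners within the pathway were compared by their ratio per length. Tgfbr1 exceeded Tgfbr2 by 6.09-, 4.35-, 4.11- and 4.14-fold in libraries 1 to 4, 4.61-fold on average (SD of the log2 ratio 0.27, n = 4). Smad3 exceeded Smad2 in 4 of 4 libraries, 2.93-fold on average (log2 1.55 ± 0.11), and Smad4 exceeded Smad2 by 2.26-fold (1.18 ± 0.06). The SMADs of the TGF-beta branch, Smad2 and Smad3 together, exceeded those of the bone morphogenetic protein branch, Smad1, Smad5 and Smad9, by 1.63-fold (0.70 ± 0.11). Ski exceeded its relative Skil by 1.97-fold (0.98 ± 0.12). With the median length of coding transcripts in place of all exonic bases, Ski over Skil turned to -0.72 and Smad4 over Smad2 to -1.17, so these 2 orders rest on the length used. The same change of length moved the SMADs of both branches to a log2 ratio of 3.04 (0.40 with the longest transcript), Tgfbr1 over Tgfbr2 to 3.18 and Smad3 over Smad4 from 0.37 to 3.17, with no change of sign. With the longest transcript, Ski over Skil stayed at 0.46 and Smad4 over Smad2 at 1.19. The median coding transcript was 605 bases for Smad3 and 1305 for Smad2, against longest transcripts of 5090 and 8089 bases. Ratios with the median length thus hang on short annotated isoforms. All 10 ratios computed had 1 direction in 4 of 4 libraries, each with an exact permutation p of 0.125, the smallest possible, and an adjusted p of 0.125 over the 10.

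Among ligands and their tethers, Tgfb1 led Tgfb2 and Tgfb3 by wide margins, and so did Nrros over Lrrc32. Tgfb1 made up 89.6%, 91.3%, 98.1% and 88.9% of the summed level per length of the 3 TGF-beta ligand genes in libraries 1 to 4. It exceeded Tgfb2 by 11.4-, 13.3-, 63.1- and 9.57-fold and Tgfb3 by 35.5-, 49.8-, 279- and 49.5-fold. Nrros exceeded Lrrc32, which encodes GARP, the related tether of regulatory T cells and endothelium, by 22.5-, 13.8-, 129- and 15.8-fold. Of the summed level of 5 genes that hold latent TGF-beta (Nrros, Lrrc32, Ltbp1, Ltbp3 and Ltbp4), Nrros made up 59.4%, 52.7%, 87.7% and 52.9%. For each of these library 3 had the largest lead. In that library Tgfb1 and Nrros stood at 1.20 and 1.08 times the mean of the others, whereas Tgfb2 was 4.66 times lower and Lrrc32 7.08 times lower than the mean of the others. Without library 3 the mean log2 lead of Nrros over Lrrc32 was 4.09 in place of 4.82, and its share of the 5 genes lay between 52.7% and 59.4%. Single ratios of Nrros over Ltbp1, Ltbp3 and Ltbp4 were not computed.

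Receptors and inhibitory SMADs gave similar contrasts. Per length, Tgfbr1 made up 86.2 ± 1.59% of 7 type I receptor genes and Tgfbr2 made up 77.5 ± 2.98% of 5 type II receptor genes (SD, n = 4). Smad7 exceeded Smad6, the inhibitory SMAD that acts mainly on bone morphogenetic protein receptors, by 8.48-, 11.2-, 19.1- and 9.76-fold in libraries 1 to 4, a mean log2 ratio of 3.53 ± 0.51. The widest lead was again in library 3, where Smad6 had 6.38 CPM against 10.4 to 14.9 CPM elsewhere.

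**Figure D3:**
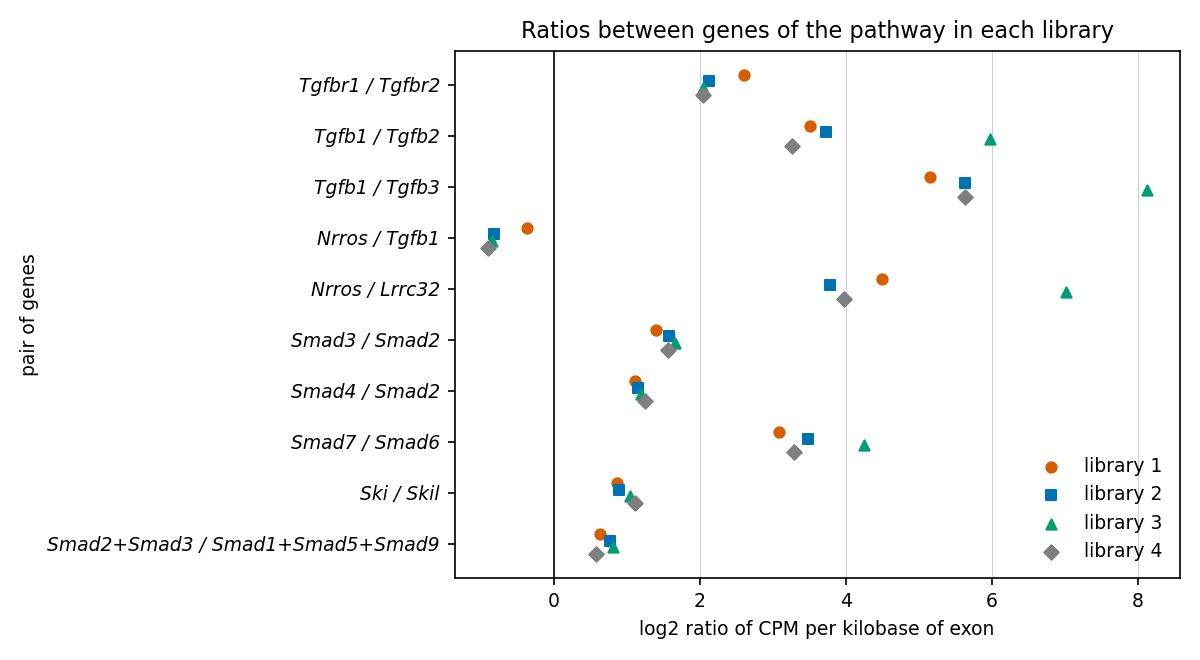
Log2 ratios of CPM per kilobase for 10 pairs of genes or summed genes, with 1 point per library and a line at 0 for equal levels. Library 3 lies to the right for the pairs with Tgfb2, Tgfb3, Lrrc32 and Smad6 in the denominator, library 1 lies to the right for Tgfbr1 over Tgfbr2, and only Nrros over Tgfb1 lies below 0.

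Beyond the members, 9 lists held 102 other genes of the pathway, of which 91 were tested and 11 varied between libraries (463 of 14112, or 3.28%, over all genes). All 11 were lowest in library 3, and over all genes 2.83% were both called and lowest there. The quasi-likelihood test called 0 of them (0 of all genes), with 12 of 91 at an unadjusted p under 0.05 (4.66% of all genes). DESeq2 marked 0 of them (0.0283% of all genes). None of the 11 kept its call in edgeR without library 3, when 0.716% of all genes were called. The summed vascular, choroid plexus, erythroid and oligodendrocyte markers given above were lowest in the same library, and their part in these calls was not tested.

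Of 16 other ligands, 6 were detected and 2 were called. Over all tested genes 3.28% were called. Tgfb2 had 29.2, 30.4, 7.00 and 38.3 CPM in libraries 1 to 4 (edgeR adjusted p = 0.00247), and Bmp6, a bone morphogenetic protein, had 19.1, 29.9, 6.69 and 37.0 CPM (adjusted p = 0.0039). Tgfb3 had 5.47, 4.75, 0.925 and 4.33 CPM and was not called (adjusted p = 0.39). Bmp6 was the highest detected gene of the list per length, at 5.94 CPM per kilobase, under the level of every member, and Gdf10 was the lowest, at 0.298. Of 12 other receptors and coreceptors, 9 were detected and 1 was called: Tgfbr3, the coreceptor betaglycan, with 20.7, 29.9, 6.52 and 40.9 CPM (adjusted p = 0.00106), which was also the lowest detected per length at 3.75 CPM per kilobase. Eng, which encodes the coreceptor endoglin, led the list at 48.7 CPM per kilobase and was not called.

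Genes that store and release latent TGF-beta held 5 calls among 12 tested (3.28% over all genes). All 5 were lowest in library 3, where 2.83% of all genes were both called and lowest. None of the 5 kept its call in edgeR without library 3. Ltbp4, a matrix protein of the latent TGF-beta binding family, had 155, 170.4, 26.4 and 129 CPM in libraries 1 to 4 (edgeR adjusted p = 8.68e-08). Its relatives Ltbp3 and Ltbp1 were 3.63 and 10.1 times lower in library 3 than the mean of the others (adjusted p = 0.000531 and 0.0138), Ltbp1 on 20 counts in that library. Lrrc32 had 9.26, 13.5, 1.54 and 10.0 CPM (adjusted p = 0.0306) and was the lowest detected of the list per length, at 1.83 CPM per kilobase. Itgb8, the beta chain of the integrin that activates TGF-beta1 bound to NRROS, had 32.8, 49.6, 14.7 and 80.3 CPM (adjusted p = 6.52e-05). The highest of the list was Itgb5, an integrin beta chain abundant in microglia, at 557 CPM per kilobase, with 1695, 1909, 2460 and 1845 CPM, and it was not called. In library 3 Nrros, at 177 CPM after TMM scaling, was thus near its highest value while its 4 counterparts in the latent complex were at their lowest. Scaled to the microglia markers, Nrros had 165 CPM in library 3, below 169 and 173 CPM in libraries 1 and 2.

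Of 4 other SMADs 0 were called by edgeR (3.28% of all genes), with 1 at an unadjusted p under 0.05 (9.57% of all genes). The quasi-likelihood test and DESeq2 also called 0, but over all genes they called only 0 and 0.0283%. A 0 from either of them, here and below, therefore says nothing about the genes of a list. Smad5, a substrate of bone morphogenetic protein receptors, led at 11.2 CPM per kilobase, Smad1 had 7.85, and Smad6 was the lowest detected at 3.33. Smad9 had 2.16, 2.51, 0.660 and 4.01 CPM in libraries 1 to 4. Among 13 other negative regulators 0 were called, with 2 at an unadjusted p under 0.05 in edgeR and 0 by the other tools. Pmepa1, which sequesters SMAD2 and SMAD3 and is induced by TGF-beta, led them at 63.4 CPM per kilobase and 311 ± 24.9 CPM, and the decoy receptor Bambi, with 4.06 ± 1.47 CPM, was the lowest detected per length. None of 11 tested adaptors and cofactors and none of 11 kinases and adaptors of the SMAD-independent branch was called or had an unadjusted p under 0.05 in edgeR, and 0 were called by the quasi-likelihood test or DESeq2. The latter ranged from Mapk14 (p38 alpha) at 69.7 to the adaptor Traf4 at 1.03 CPM per kilobase. The cofactors reached 22.0 CPM per kilobase for Hgs and went down to 0.698 for Runx3. In GENCODE M21 a second gene model covers 97.2% of the exonic bases of Hgs, but only 1 Hgs identifier was in the count table.

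Of 12 general TGF-beta target genes all were detected and 4 were called, Id1, Id3, Ccn2 and Ltbp3. Over all tested genes 3.28% were called. None of these 4 kept its call without library 3. Ltbp3 also stands in the list of latent TGF-beta genes above, so its call is counted in both lists. Id1 and Id3, inhibitors of helix-loop-helix factors that bone morphogenetic proteins also induce, had 40.4, 33.6, 4.93 and 23.9 CPM and 35.0, 34.5, 5.42 and 29.6 CPM in libraries 1 to 4 (edgeR adjusted p = 3.85e-05 and 0.0002). Ccn2, a matrix-associated protein, was 7.74 times lower in library 3 than the mean of the others (adjusted p = 0.0466). Junb had the highest level of the list, at 603 CPM per kilobase, and Col1a1 the lowest, at 0.552. Of 10 microglial genes known to need TGF-beta for their expression, all were detected and 0 were called by edgeR. In edgeR 1 had an unadjusted p under 0.05 (9.57% of all genes). The other tools called 0 (0 and 0.0283% of all genes). Slc2a5, a sugar transporter gene, had the lowest level of the list, at 111 CPM per kilobase. Their summed level was 30203, 23370, 26492 and 21813 CPM in libraries 1 to 4. Of the 10 genes, 6 had their highest value in library 1 and 4 in library 3. The lowest value was in library 4 for 6 genes, in library 1 for 2 and in library 2 for 2.

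**Figure D4:**
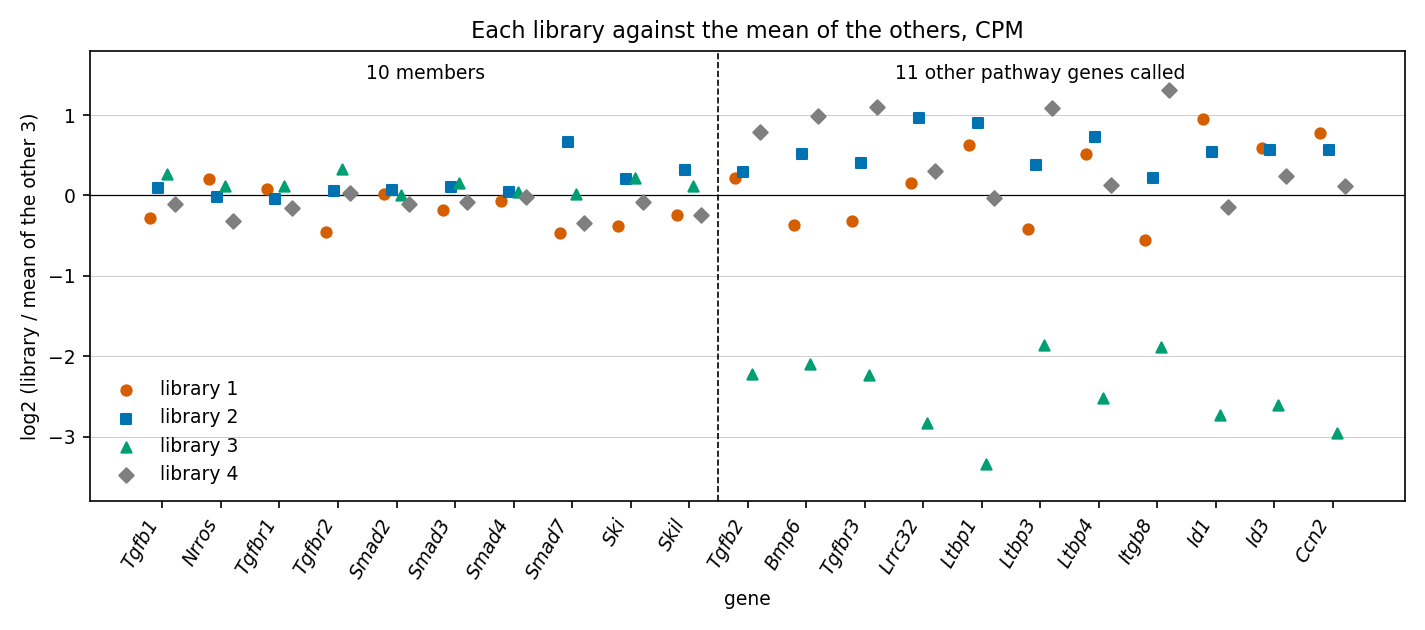
Log2 of the CPM of each library over the mean of the other 3, for the 10 members (left of the dashed line) and the 11 other pathway genes called in edgeR (right). The members lie between -0.47 and 0.66, while library 3 lies between -3.33 and -1.86 for the called genes, which were selected for their spread.

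In library 1, 6 of 10 members had their lowest value, against 31.0% of all tested genes. The count was 7 with total counts (30.7% of all tested genes), 7 with DESeq2 size factors (34.0%) and 9 when scaled to the summed microglia markers (42.6%), a scaling that moves every gene by -0.13, 0.06, -0.10 and 0.18 on the log2 scale in libraries 1 to 4. Against the mean of libraries 2 to 4, library 1 was at 0.73 of their level for Tgfbr2, 0.72 for Smad7, 0.77 for Ski, 0.82 for Tgfb1 and 0.85 for Skil. It was at 0.88, 0.95 and 1.01 of their level for Smad3, Smad4 and Smad2, at 1.15 for Nrros and at 1.06 for Tgfbr1. Long genes as a class were low in this library: 46.0% of the longest class of tested genes (at least 5782 exonic bases) had their lowest value there, 29.5% of the middle class and 17.5% of the shortest. No member falls in the shortest class, 6 fall in the middle class (3189 to 5781 bases) and 4 in the longest. Within the longest class the members ran from -0.46 for Tgfbr2 to 0.08 for Tgfbr1 (log2), around a class median of -0.15. Within the middle class they ran from -0.47 for Smad7 to 0.20 for Nrros, around 0.01. The part of length, and of the border macrophage markers that were highest in this library, in the members' values was not tested.

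**Figure D5:**
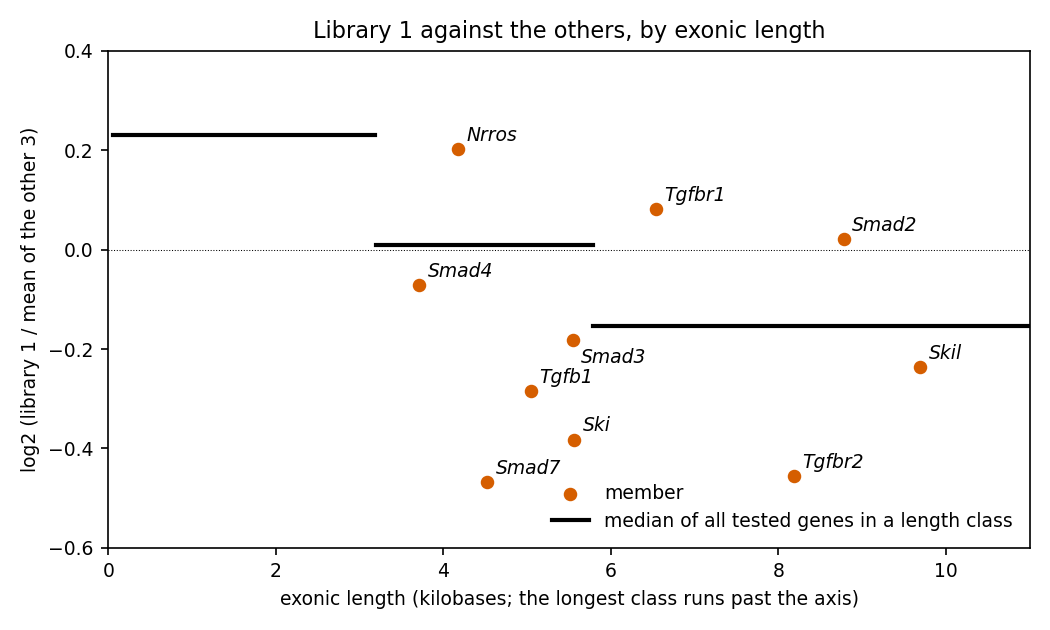
Log2 of the CPM of library 1 over the mean of the other 3 (vertical) against exonic length in kilobases, with 1 point per member and black lines for the median over all tested genes in 3 equal classes of length. Members of similar length lie far apart, such as Nrros (0.20) and Smad7 (-0.47).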

How the data were processed

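Poly(A) RNA of CD11b-positive brain cells was sequenced in 4 libraries of 1 group. The authors deposited raw counts per Ensembl gene in 4 columns. The submitters' processing notes name STAR 2.7.2b, featureCounts 1.6.5, bcl2fastq 2.20.0.422 and the GRCm38 build. For the annotation release, strand setting and multi-mapping reads, nothing is stated in the labels used here. GENCODE M21 (GRCm38) matched 55230 of 55471 identifiers and gave symbols, positions and exonic lengths. CPM used TMM-scaled library sizes (edgeR 4.0.16, R 4.3.3), and CPM per kilobase divided by the union of exons. Floors of 3 counts (0.119 to 0.132 CPM) cover counting error only.

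Spread between libraries was tested with an intercept-only negative binomial fit in edgeR (trended dispersion, residual deviance against chi-square on 3 degrees of freedom, filterByExpr, 14112 genes, Benjamini-Hochberg), since 1 group leaves no coefficient to test. All 10 members passed the filter. Alternatives were a quasi-likelihood variance test, DESeq2 1.42.0 dispersion outliers, other scalings and lengths, no filter, and leaving out each library. Ratios used the exact sign-flip permutation test. Uniqueness used stretches of 50 bases, and log2 CPM for detected genes carried no offset. The members, lists and ratios were chosen with earlier results of these data known. Shares within families were added after seeing the values. Named are all members, and of each pathway list the highest and lowest detected gene per length, each gene called and each gene of a ratio. For 1 list the highest gene is not reported here. No protein or promoter sequence is printed, because no result turns on one.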

Additional observations from a re-analysis of the deposited data

Results flagged for a closer look

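In a group of 4 libraries, the gap between the most extreme library and its nearest neighbour was set against the whole range and compared with Dixon's critical value for 4 samples. Among 36 checked values 3 exceeded it, and chance alone flags about 1 in 20 groups. The log2 ratio of Tgfbr1 over Tgfbr2 reached 2.61 in library 1, against 2.04 to 2.12 elsewhere (gap 0.857 of the range). The log2 ratio of Nrros over Tgfb1 was -0.37 in library 1, against -0.91 to -0.82 elsewhere (gap 0.836 of the range). The log2 ratio of Tgfb1 over Tgfb3 reached 8.12 in library 3, against 5.15 to 5.64 elsewhere (gap 0.836 of the range), with 21 counts of Tgfb3 in that library.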

How the results depend on the processing

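No paired analysis was possible because the libraries form 1 group. None of 10 members passed the threshold in edgeR in any of the alternatives run. None of 70 recomputed member levels moved by 1 SD, but these runs could hardly have moved one. Leaving out 1 of 4 libraries cannot shift a mean that far, and the other scalings raise some libraries while lowering others. The count over all genes, 463, was 0 in the quasi-likelihood test, 4 among DESeq2 dispersion outliers and 106 to 425 when 1 library was left out, lowest without library 3 and 276 and 258 without libraries 2 and 4. The count of other pathway genes, 11, was 0 in both other tools and 0 to 11 with 1 library left out, at 0 without library 3 and 5 without library 4.

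With the median length of coding transcripts, the log2 ratios that changed sign were Smad4 over Smad2 (-1.17), Ski over Skil (-0.72), Ski over Tgfbr2 (-0.37), Tgfbr2 over Tgfb1 (-0.62), Nrros over Skil (-0.92) and Smad7 over Smad3 (-0.80), and the share of Tgfbr1 became 87.9%. With the longest transcript, Tgfbr2 over Tgfb1 was -0.87, Nrros over Skil was -0.25 and the share of Tgfbr2 was 73.4%. Without a change of sign, the median coding length moved the log2 ratio of Tgfb1 over Tgfb2 from 4.12 to 4.90, of Tgfb1 over Tgfb3 from 6.14 to 7.35, of Smad7 over Smad6 from 3.53 to 4.30 and of Tgfbr1 over Ski from 2.11 to 3.55, and the longest transcript moved Nrros over Tgfb1 from -0.74 to -1.48. These changes follow from the lengths alone. With 1 library left out, Nrros over Skil ran from -0.049 (without library 1) to 0.14, and the other ratios kept their sign.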
